A study of Mus musculus with 6 samples.

Results

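The scavenger receptors described here are 10 genes, chosen by name as a receptor family, with earlier results of these data known, out of 55335 gene identifiers in the table: Msr1, Marco, Cd36, Olr1, Scarb1, Mrc1, Cd163, Stab1, Cd68 and Lrp1. They were read in 6 RNA-seq libraries of primary microglia. The microglia were prepared from whole brains of neonatal C57BL/6 mice with a WT genotype, and they were co-cultured for 24 h with neutrophils taken by magnetic sorting from the injured spinal cord at 3 dpi (days post injury). The neutrophils came from Cd177 WT mice in 3 libraries and from Cd177 KO mice in the other 3, and CD177 is a surface glycoprotein of neutrophils. After co-culture the microglia were sorted as Ly6G- cells by FACS, and the genotype that differs between the groups is that of the neutrophils. No culture of microglia without neutrophils was analysed here, so each value compares exposure to KO neutrophils with exposure to WT neutrophils.

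Scavenger receptors bind modified lipoproteins, dying cells, bacteria and other polyanionic or hydrophobic cargo and carry it into the endosomal and lysosomal system. The family is a functional one and joins unrelated proteins: the collagen-like class A receptors Msr1 and Marco, the class B lipid receptors Cd36 and Scarb1, the lysosomal Cd68, the lectin-like Olr1, the mannose receptor Mrc1, the haemoglobin-haptoglobin receptor Cd163, the stabilin Stab1 and the large endocytic receptor Lrp1. In injured nervous tissue microglia and macrophages use such receptors to take up myelin debris and lipid.

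The plot of receptor levels by library gives the 6 FPKM values of every receptor (FPKM, fragments scaled for transcript length and library size, which allows levels of different genes to be compared). Of the 10 receptors, 6 averaged 1 FPKM or more across the libraries and entered the test across all genes (limma on log2(FPKM + 1), Benjamini-Hochberg adjustment over 11395 genes, call at an adjusted p under 0.05). All 6 were called: Cd36, Scarb1, Cd68 and Lrp1 were higher, and Msr1 and Stab1 lower, in microglia exposed to KO neutrophils. The background was high, since 43.3% of all genes tested were called, 24.5% as higher and 18.8% as lower. The median log2 change was 0.21 over the 6 receptors tested and 0.02 over all genes tested. Marco, Olr1, Mrc1 and Cd163 lay under the filter and are given by their values. In all 6 receptors tested the libraries of one group lay wholly above those of the other, as in 55.8% of all genes tested. The same held for the 3 receptors under the filter with a value above 0 in a library, in Olr1 by less than 1 fragment, and for 13.8% of 13800 such genes.

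**Figure D1:**
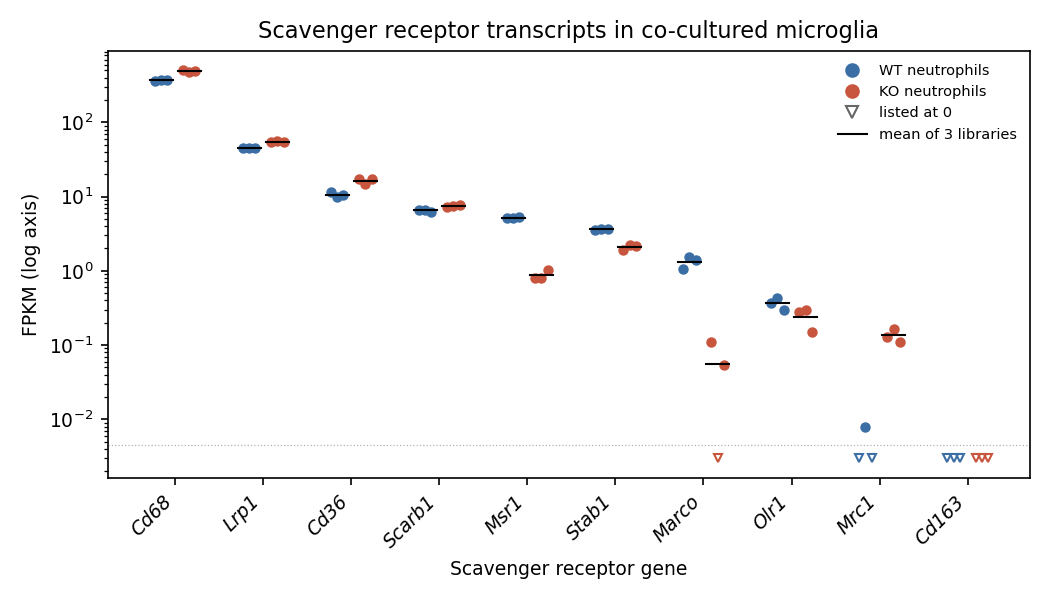
FPKM of each scavenger receptor (log axis) in the 3 libraries with WT neutrophils (blue) and the 3 with KO neutrophils (red), ordered by the WT mean. Black lines are means, triangles under the dotted line are libraries in which the gene was listed at 0, and a mean close to 0 is not drawn. The 2 groups of Msr1 and Marco stand far apart, while those of Lrp1 and Scarb1 lie close to each other.

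Among the class A receptors, Msr1 and Marco had their higher level in the WT group. Msr1 (ENSMUSG00000025044, chr8:39581685-39642673, minus strand, GRCm38), which encodes the trimeric scavenger receptor A for acetylated lipoproteins, was at 5.09, 5.173 and 5.393 FPKM in the 3 libraries with WT neutrophils and at 0.801, 0.804 and 1.019 FPKM in the 3 libraries with KO neutrophils. Each KO library was thus under every WT library by several-fold, and the spread within a group was small beside the gap. The mean fell from 5.22 ± 0.156 to 0.874 ± 0.125 FPKM (SD, n = 3 each), a 5.97-fold lower level. On the log2(FPKM + 1) scale, which understates the change of a low gene, the change was -1.73 (SE 0.068, 95% interval -1.90 to -1.57, limma adjusted p = 7.33e-06). Msr1 was the 1 receptor tested that was called with more than a 2-fold fitted fall, as were 2.02% of all genes tested. Its level exceeded that of 36.7% of the tested genes in the WT group and that of 0.9% in the KO group, so the gene passed the filter chiefly through the WT libraries. In bulk RNA, fewer cells that express a gene and less of its RNA per cell cannot be told apart, here and for every receptor below.

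Marco (ENSMUSG00000026390, chr1:120474538-120505024, minus strand), the collagen-like macrophage receptor for bacteria and particles, was at 1.063, 1.534 and 1.408 FPKM with WT neutrophils and at 0.111, 0 and 0.054 FPKM with KO neutrophils. All WT libraries lay above all KO libraries, and the WT mean of 1.33 FPKM was 12.1 times the highest KO value. The level worth 3 fragments was 0.098 FPKM in the KO library with the highest such floor, so the KO values are a few fragments at most. The mean over all libraries missed the filter. In a fit with no filter on low values, in which 17.9% of 25195 genes were called, the log2 change was -1.14 (95% interval -1.38 to -0.91, limma adjusted p = 0.000901).

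The class B receptors moved the other way. Cd36 (ENSMUSG00000002944, chr5:17781690-17888801, minus strand), which takes up oxidised lipoproteins and long-chain fatty acids, was at 11.412, 9.941 and 10.515 FPKM with WT neutrophils and at 17.202, 14.779 and 17.065 FPKM with KO neutrophils. The lowest KO library lay above the highest WT library, though the KO libraries were spread more widely. The mean rose from 10.6 ± 0.741 to 16.4 ± 1.36 FPKM, or 1.54-fold (log2 change 0.58, SE 0.074, 95% interval 0.40 to 0.76, limma adjusted p = 0.00127).

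Scarb1 (ENSMUSG00000037936, chr5:125277087-125341094, minus strand), the high-density lipoprotein receptor that exchanges cholesteryl esters, was at 6.698, 6.674 and 6.213 FPKM with WT neutrophils and at 7.168, 7.555 and 7.672 FPKM with KO neutrophils. The groups did not overlap, but the gap between them was about as wide as the spread within a group. The mean was 1.14-fold higher in the KO group (6.53 ± 0.273 against 7.47 ± 0.264 FPKM), with a log2 change of 0.17 (SE 0.047, 95% interval 0.06 to 0.28) and a limma adjusted p of 0.029. This call was the least secure of the 6. It was lost when the libraries were rescaled to a common sum (limma adjusted p = 0.0764), when the replicate number was fitted as a block (limma adjusted p = 0.0774), when no low genes were filtered out (limma adjusted p = 0.0527), and when any library but KO replicate 1 was left out (limma adjusted p = 0.0516 to 0.0864), with the direction kept each time.

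Cd68 (ENSMUSG00000018774, chr11:69664213-69666153, minus strand) encodes macrosialin, a lysosomal glycoprotein widely used as a marker of phagocytic microglia and macrophages, and it was the most abundant receptor of the 10 in every library. It was at 363.252, 374.483 and 377.415 FPKM with WT neutrophils and at 505.195, 480.915 and 487.786 FPKM with KO neutrophils. The libraries of each group were close together and the groups were clearly apart. The mean rose 1.32-fold, from 372 ± 7.48 to 491 ± 12.5 FPKM (log2 change 0.40, SE 0.026, 95% interval 0.34 to 0.46, limma adjusted p = 5.92e-05).

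Lrp1 (ENSMUSG00000040249, chr10:127538161-127621148, minus strand), a giant endocytic receptor that clears apolipoprotein E particles, proteases and their inhibitors, was second in level in every library. The WT group gave 45.838, 45.773 and 45.189 FPKM, and the KO group gave 54.579, 55.577 and 53.962 FPKM. The difference was modest in size and large beside the SD, which was under 1 FPKM in either group. The mean rose 1.20-fold, from 45.6 ± 0.357 to 54.7 ± 0.815 FPKM (log2 change 0.26, SE 0.022, 95% interval 0.20 to 0.31, limma adjusted p = 0.000244).

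Stab1 (ENSMUSG00000042286, chr14:31139013-31168641, minus strand), the stabilin that takes up acetylated lipoprotein and the matrix protein SPARC, fell. It was at 3.598, 3.717 and 3.629 FPKM with WT neutrophils and at 1.899, 2.248 and 2.159 FPKM with KO neutrophils, without overlap. The mean was 1.74-fold lower (3.65 ± 0.0618 against 2.102 ± 0.181 FPKM), and the log2 change was -0.58 (SE 0.062, 95% interval -0.73 to -0.44, limma adjusted p = 0.000565). The exons of Stab1 overlap those of Nt5dc2 on the opposite strand by 112 bases, and whether the reads were counted by strand is not stated. Nt5dc2 was the more abundant of the pair, at 24.58 to 25.985 FPKM in the WT group and 26.944 to 29.201 FPKM in the KO group, and was slightly higher in the KO group (log2 change 0.13, limma adjusted p = 0.0364), opposite to Stab1.

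The remaining receptors were low, and Mrc1 and Cd163 were at or near the limit of these libraries. Olr1 (ENSMUSG00000030162, chr6:129485244-129507165, minus strand), the lectin-like receptor for oxidised low-density lipoprotein, was at 0.367, 0.433 and 0.295 FPKM with WT neutrophils and at 0.281, 0.293 and 0.149 FPKM with KO neutrophils. The lowest WT library exceeded the highest KO library by less than 1 fragment would be worth, since 3 fragments of this gene are worth up to 0.0539 FPKM. Without a filter the log2 change was -0.14 with a 95% interval from -0.30 to 0.02 (limma adjusted p = 0.244), so no difference was resolved.

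Mrc1 (ENSMUSG00000026712, chr2:14229392-14332057, plus strand), the mannose receptor CD206 of tissue macrophages and a usual marker of alternative activation, was at 0, 0.008 and 0 FPKM with WT neutrophils and at 0.128, 0.167 and 0.109 FPKM with KO neutrophils. The WT libraries all lay under the level of 3 fragments (up to 0.0359 FPKM) and the KO libraries all above it, and the KO mean of 0.134 FPKM was 3.75 times that floor. Without a filter the log2 change was 0.18 (95% interval 0.12 to 0.24, limma adjusted p = 0.00489). The transcript thus stayed far under 1 FPKM in both groups. Cd163 (ENSMUSG00000008845, chr6:124304656-124330527, plus strand), the haemoglobin scavenger receptor of perivascular macrophages, was listed at 0 in all 6 libraries, which allows a level of up to 0.0434 FPKM.

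For single receptors the group means were also compared by permuting the libraries (exact test, two-sided), which gave p = 0.1 for each of the 9 receptors with a value above 0 (n = 3 each). With 3 libraries against 3 this is the smallest p it can give, so it cannot pass 0.05. The labels do not state that the libraries of a group came from separate cultures, and the p-values may then measure a spread that is technical.

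**Figure D2:**
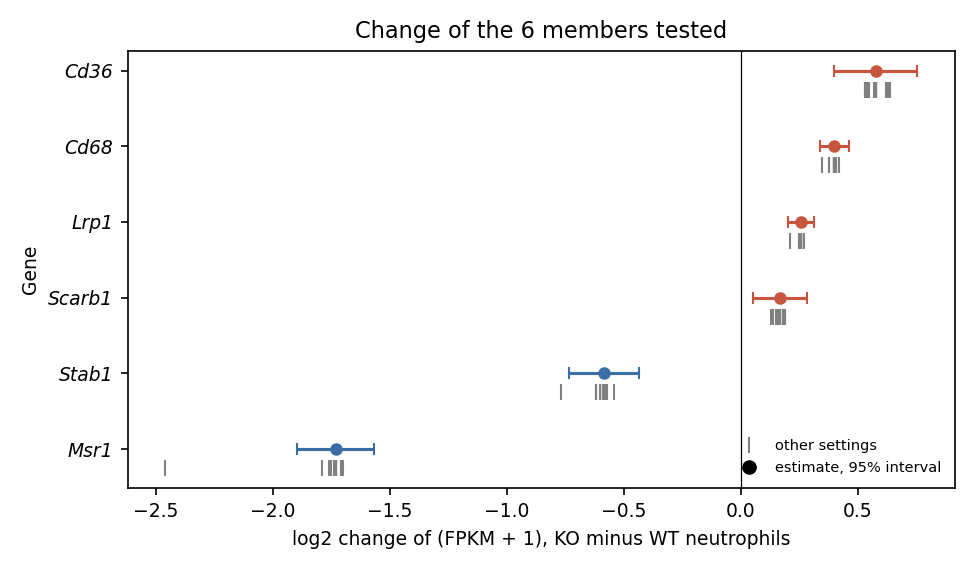
Log2 change of (FPKM + 1), KO minus WT neutrophils, for the 6 scavenger receptors tested, with 95% intervals (points and bars). Grey ticks under each point are the estimates under the other settings, including those without 1 library. No tick crosses 0, and the tick of Msr1 at -2.46 is the fit with a pseudocount of 0.1.

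The order of the receptors by level was nearly the same in both groups. With WT neutrophils it ran Cd68, Lrp1, Cd36, Scarb1, Msr1, Stab1, Marco, Olr1, Mrc1 and Cd163, and no neighbours down to Mrc1 overlapped between their libraries. With KO neutrophils Stab1 stood above Msr1, and Marco dropped under Olr1 and Mrc1. In that group the libraries of Olr1 overlapped those of Mrc1 (0.149 to 0.293 against 0.109 to 0.167 FPKM), and those of Mrc1 overlapped Marco, so their order is not resolved.

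Ratios between receptors within a library do not depend on how the libraries were scaled. Of the 15 pairs among the 6 receptors tested, 5 of which include Msr1, 13 had log2 ratios of FPKM that did not overlap between the groups, as had 53.8% of all pairs of tested genes with values above 0 in every library. The log2 ratio of Msr1 to Cd68 took the values -6.16, -6.18 and -6.13 in the WT group against -9.30, -9.22 and -8.90 in the KO group, a mean difference of -2.99. Msr1 also dropped relative to Stab1, the other receptor that fell, with a mean log2 ratio of 0.52 with WT neutrophils and -1.27 with KO neutrophils. The log2 ratio of Cd36 to Cd68 overlapped narrowly between the groups (-5.24 to -4.99 against -5.02 to -4.84, a mean difference of 0.22), and that of Scarb1 to Lrp1 overlapped too (-2.86 to -2.77 against -2.93 to -2.81, a mean difference of -0.07). The log2 ratio of Cd68 to Lrp1, the most abundant pair, differed by 0.14 without overlap.

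Promoter windows were read for the receptors to show which sequence lies at their start sites, from RefSeq on GRCm38.p6, 250 bases before to 50 bases after the start. Windows were matched for 8 of the 10 receptors, not for Msr1 and Scarb1. Motifs of factors active in macrophages were searched on both strands: AP-1 (TGANTCA, in 7.81% of 32851 windows of this length), the ETS core of PU.1 (GAGGAA, in 28.3%), the NF-kB site (in 8.46%) and the E-box (CACGTG, in 7.15%). The ETS core was found in 5 of the 8 windows (Marco, Olr1, Mrc1, Stab1 and Cd68) and AP-1 in 2 (Olr1 and Cd68), while the NF-kB letters and the E-box were in none, and no matches overlapped. These windows are shown 5′ to 3′ on the gene's strand for 2 receptors with a lower level after KO neutrophils, Marco (chr1:120504975-120505274, minus strand) and Stab1 (chr14:31168592-31168891, minus strand), and for 2 with a higher level, Cd68 (chr11:69666121-69666420, minus strand) and Cd36 (chr5:17835847-17836146, minus strand), with the matches in capitals. The Cd36 window lies at a start site inside the span of the gene given above.
Marco: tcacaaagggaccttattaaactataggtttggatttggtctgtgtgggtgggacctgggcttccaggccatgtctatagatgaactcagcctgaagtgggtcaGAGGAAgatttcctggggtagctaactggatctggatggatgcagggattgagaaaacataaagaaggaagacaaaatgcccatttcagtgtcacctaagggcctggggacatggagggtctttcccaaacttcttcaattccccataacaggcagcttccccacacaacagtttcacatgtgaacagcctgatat
Stab1: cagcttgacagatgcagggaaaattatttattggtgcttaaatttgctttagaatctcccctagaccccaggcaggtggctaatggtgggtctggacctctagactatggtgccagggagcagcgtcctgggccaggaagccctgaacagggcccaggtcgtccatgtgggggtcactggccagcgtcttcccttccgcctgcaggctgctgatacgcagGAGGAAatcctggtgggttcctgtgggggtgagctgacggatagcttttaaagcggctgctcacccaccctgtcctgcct
Cd68: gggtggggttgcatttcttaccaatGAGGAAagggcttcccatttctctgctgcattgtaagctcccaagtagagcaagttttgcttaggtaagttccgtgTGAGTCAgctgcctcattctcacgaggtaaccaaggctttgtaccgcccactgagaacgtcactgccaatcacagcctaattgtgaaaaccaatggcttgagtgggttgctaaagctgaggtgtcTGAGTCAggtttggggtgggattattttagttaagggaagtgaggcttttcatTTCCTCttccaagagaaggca
Cd36: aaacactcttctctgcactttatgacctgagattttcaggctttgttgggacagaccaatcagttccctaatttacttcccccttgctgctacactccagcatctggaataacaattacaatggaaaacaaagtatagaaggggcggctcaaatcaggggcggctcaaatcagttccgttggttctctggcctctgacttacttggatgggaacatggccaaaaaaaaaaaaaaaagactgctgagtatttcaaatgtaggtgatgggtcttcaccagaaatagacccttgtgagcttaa
Marco and Stab1 each hold 1 ETS core, Cd68 holds 2 ETS cores and 2 AP-1 matches (TGAGTCA), and Cd36 holds none of the motifs. The ETS core thus occurs in windows of receptors from both directions. The windows are of ordinary to low GC content in Marco (47.3%), Cd68 (47.7%) and Cd36 (43.0%), against a median of 52.7% over all windows, and higher in Stab1 (57.3%) and Lrp1 (67.7%). A match describes letters only and says nothing of binding in these cells.

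Around the receptors, 9 lists of 121 distinct genes (related receptors, ligands, partners, shedding enzymes, lipid and haem handling, and transcription factors) give the setting. Of these genes 87 were tested and 66 were called (75.9%, against 43.3% of all genes tested), 34 as higher and 32 as lower, with a median log2 change of 0.08. The lists were chosen with earlier results of these data known, so the share is a description. The plot of the lists shows that 7 of the 9 held genes called in both directions.

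**Figure D3:**
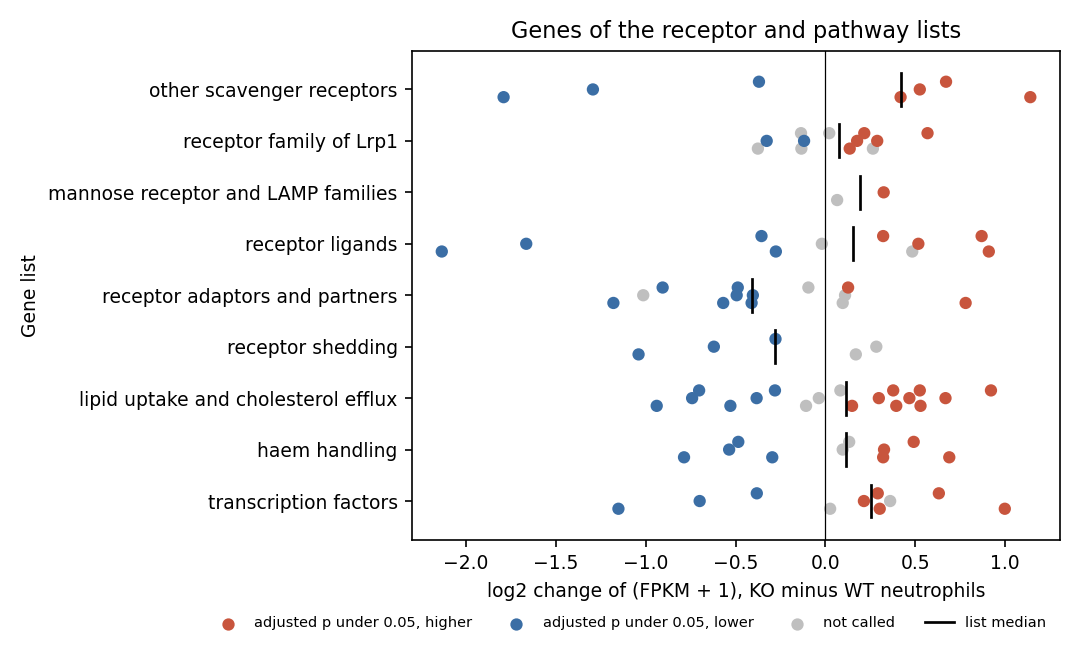
Log2 change of (FPKM + 1), KO minus WT neutrophils, of each tested gene in the 9 receptor and pathway lists, 1 point per gene. Red and blue points had a limma adjusted p under 0.05, grey points did not, and black bars are list medians. The medians lie between -0.41 (receptor adaptors and partners) and 0.42 (other scavenger receptors).

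Of 18 other scavenger receptors 7 were tested, 4 rose and 3 fell. Cd14, the co-receptor for lipopolysaccharide, fell from 474 ± 7.0 to 136 ± 1.66 FPKM, or 3.48-fold (limma adjusted p = 4.09e-08). Clec7a, the beta-glucan receptor dectin-1, rose 2.34-fold, from 9.03 ± 0.0737 to 21.1 ± 0.769 FPKM (limma adjusted p = 3.71e-06). The collectin Colec12, a class A receptor like Msr1 and Marco, rose 1.63-fold to 25.5 ± 0.132 FPKM (limma adjusted p = 2.13e-05), opposite to those receptors. Scara3, a further class A receptor of the list, fell with them, from 4.95 ± 0.195 to 3.61 ± 0.226 FPKM (limma adjusted p = 0.00277). Cd5, a receptor with scavenger domains, fell 4.09-fold to 0.894 ± 0.0913 FPKM (limma adjusted p = 8.10e-05), and like Msr1 it passed the filter through the WT libraries.

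In the list on the receptor family to which Lrp1 belongs, 12 of 17 genes were tested, 5 rose and 2 fell. Mylip, a ubiquitin ligase that limits lipoprotein uptake, rose 1.61-fold, from 3.78 ± 0.137 to 6.09 ± 0.211 FPKM (limma adjusted p = 0.000213). Lrp5, a Wnt co-receptor, rose 1.18-fold (limma adjusted p = 0.0121). Lrpap1, the chaperone of Lrp1, fell from 43.9 ± 0.839 to 34.8 ± 1.40 FPKM (limma adjusted p = 0.000618), against the rise of Lrp1. Among the 7 genes related to Mrc1 and Cd68, 2 were tested: the lysosomal membrane protein Lamp1 rose 1.25-fold, close to the 1.32-fold of Cd68 (limma adjusted p = 6.36e-05), and Lamp2 was at 44.97 ± 0.374 and 47.1 ± 0.51 FPKM (log2 change 0.07, limma adjusted p = 0.0541).

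Of 13 ligands of these receptors 10 were tested, 4 rose and 4 fell. Lpl, lipoprotein lipase, rose 1.89-fold to 247 ± 0.855 FPKM (limma adjusted p = 3.85e-07), and Plau, the urokinase, which Lrp1 helps to clear, rose 1.83-fold to 166 ± 4.26 FPKM (limma adjusted p = 4.63e-06). Hp, haptoglobin, a ligand of Cd163, fell 4.89-fold, from 33.5 ± 3.25 to 6.86 ± 0.735 FPKM (limma adjusted p = 1.11e-05), while Cd163 was listed at 0 throughout.

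Of 15 adaptors and partners 13 were tested, 2 rose and 7 fell, and this list had the lowest median log2 change (-0.41). The tetraspanin Cd9, a membrane partner of Cd36, rose 1.72-fold to 229 ± 2.45 FPKM (limma adjusted p = 1.37e-06), in the direction of Cd36. Tlr2, a co-receptor of Cd36 for bacterial lipids, fell 2.31-fold, from 56.7 ± 1.32 to 24.5 ± 1.87 FPKM (limma adjusted p = 1.65e-05). The exchange factor Vav1 fell 1.90-fold (limma adjusted p = 1.07e-05) and the endocytic adaptor Dab2 fell 1.33-fold (limma adjusted p = 4.08e-05). In the list on shedding of receptors from the surface, 5 of 8 genes were tested, none rose and 3 fell. These were the convertase Furin (2.23-fold, limma adjusted p = 4.51e-06), Rhbdf2, which carries the sheddase ADAM17 (1.61-fold, limma adjusted p = 0.000195), and Adam17 itself at 32.3 ± 2.45 against 26.5 ± 2.72 FPKM (limma adjusted p = 0.0418), a call that several alternatives lost.

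Downstream of uptake, 18 of 19 genes of lipid handling were tested, 9 rose and 6 fell. Lipa, the lysosomal acid lipase, rose 1.94-fold to 37.6 ± 0.525 FPKM (limma adjusted p = 2.06e-06), and Plin2, a coat protein of lipid droplets, rose 1.60-fold to 108 ± 0.136 FPKM (limma adjusted p = 2.70e-06). Nceh1, a cholesteryl ester hydrolase, rose 1.46-fold (limma adjusted p = 2.51e-05). Abca1, the cholesterol exporter, fell 2.06-fold, from 12.8 ± 0.0779 to 6.22 ± 0.0541 FPKM (limma adjusted p = 4.90e-06), while Abcg1, another cholesterol exporter, rose 1.34-fold, from 6.76 ± 0.626 to 9.06 ± 0.191 FPKM (limma adjusted p = 0.00442). All 10 genes of haem handling were tested, 4 rose and 4 fell. The iron exporter Slc40a1 rose 1.71-fold (limma adjusted p = 3.79e-05), biliverdin reductase Blvra rose 1.42-fold (limma adjusted p = 2.61e-05) and the ferritin light chain Ftl1 rose 1.25-fold (limma adjusted p = 1.09e-05). The 4 that fell were the ferritin heavy chain Fth1 (1.75-fold, limma adjusted p = 0.00503), biliverdin reductase Blvrb (1.5-fold, limma adjusted p = 0.00475), the metal transporter Slc11a1 (1.46-fold, limma adjusted p = 0.00102) and haem oxygenase Hmox1 (1.23-fold, limma adjusted p = 0.000531). Scara3, Abcg1 and these 4 genes were added after their values were seen.

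Of 15 transcription factors known to act on scavenger receptor genes 10 were tested, 5 rose and 3 fell. Nr4a1, an immediate early nuclear receptor, fell 2.37-fold to 8.06 ± 0.781 FPKM (limma adjusted p = 3.22e-05), Cebpb fell 1.63-fold to 86.0 ± 4.25 FPKM (limma adjusted p = 2.51e-05), and Stat3 fell 1.34-fold (limma adjusted p = 0.000963). No gene called in the lists changed sign under any alternative setting.

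Facts of all libraries that stand beside these results are few. The depth read from the smallest steps between low values was 15600000 to 19200000 fragments, and 11371 to 11406 genes per library had at least 1 FPKM. Mitochondrial genes held 11.1% to 11.32% of all FPKM in the WT group and 14.31% to 14.62% in the KO group. With each library rescaled to a common sum, 54.9% of all calls were lower in place of 43.4%, and all receptors tested kept their direction. The libraries of the WT group held Cd177 at 0.477, 0.113 and 0.151 FPKM and those of the KO group at 0.109, 0.022 and 0.084 FPKM. The libraries were made from the cells sorted as Ly6G-, and the labels give the microglia as WT in both groups, so these values do not check the genotype of the neutrophils.

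Markers of the cell types that the sort could hold moved with the groups in part. Of 16 microglia markers 8 were tested. Csf1r, Trem2 and Tyrobp were among the 4 that rose, and Cx3cr1 and Adgre1 fell, while the homeostatic Sall1 and Fcrls were listed at 0 and Tmem119 was at 0.204 to 0.793 FPKM. Their summed level ran from 430.0 to 454.0 FPKM in the WT group and from 450.1 to 481.3 FPKM in the KO group. The label microglia thus goes with genes that other macrophages also express, while defining homeostatic markers were at or near 0. Of 8 markers of border macrophages, the brain-resident cells in which Mrc1, Cd163 and Stab1 are usually high, 3 were tested. Pf4 was the highest, at 48.06 ± 1.97 and 50.2 ± 1.5 FPKM, and was not called (limma adjusted p = 0.24). Siglec1 fell from 12.1 ± 0.331 to 3.78 ± 0.118 FPKM (limma adjusted p = 2.32e-06). The sum of the 8 markers ran from 59.49 to 64.0 FPKM in the WT group and from 54.52 to 57.54 FPKM in the KO group. This lower sum came mainly from Siglec1, as Pf4 was not lower. Lyve1, Folr2 and F13a1 were at or near 0.

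Of 14 neutrophil markers 1 was tested, Mmp9, which fell (7.13 ± 0.0688 to 0.987 ± 0.19 FPKM, limma adjusted p = 7.38e-06) and passed the filter through the WT libraries. The summed level of all 14 ran from 9.239 to 9.381 FPKM in the WT group and from 1.757 to 2.402 FPKM in the KO group. Msr1, Marco and Stab1 were also lower in the KO group, while Cd36, Scarb1, Cd68, Lrp1 and Mrc1 were higher. Mmp9 made up most of the sum of the 14 markers in the WT group. The other 13 together ran from 2.03 to 2.30 FPKM in the WT group and from 0.791 to 1.27 FPKM in the KO group. Ly6g, S100a9, Elane, Mpo, Ltf and Retnlg were listed at 0 in all libraries. Of 8 astrocyte markers 1 was tested, Aldoc, and of 10 oligodendrocyte lineage markers 1, Cnp. Both rose (limma adjusted p = 0.00278 and 0.00521), while Aqp4, Aldh1l1, Sox10 and Olig2 were listed at 0. Of 7 endothelial markers 2 were tested, and Vwf rose while Flt1 fell (limma adjusted p = 0.00137 and 0.00161). No marker of monocytes and dendritic cells, neurons, fibroblasts and pericytes, or lymphocytes passed the filter. The part of these cell types in the receptor values was not tested.

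**Figure D4:**
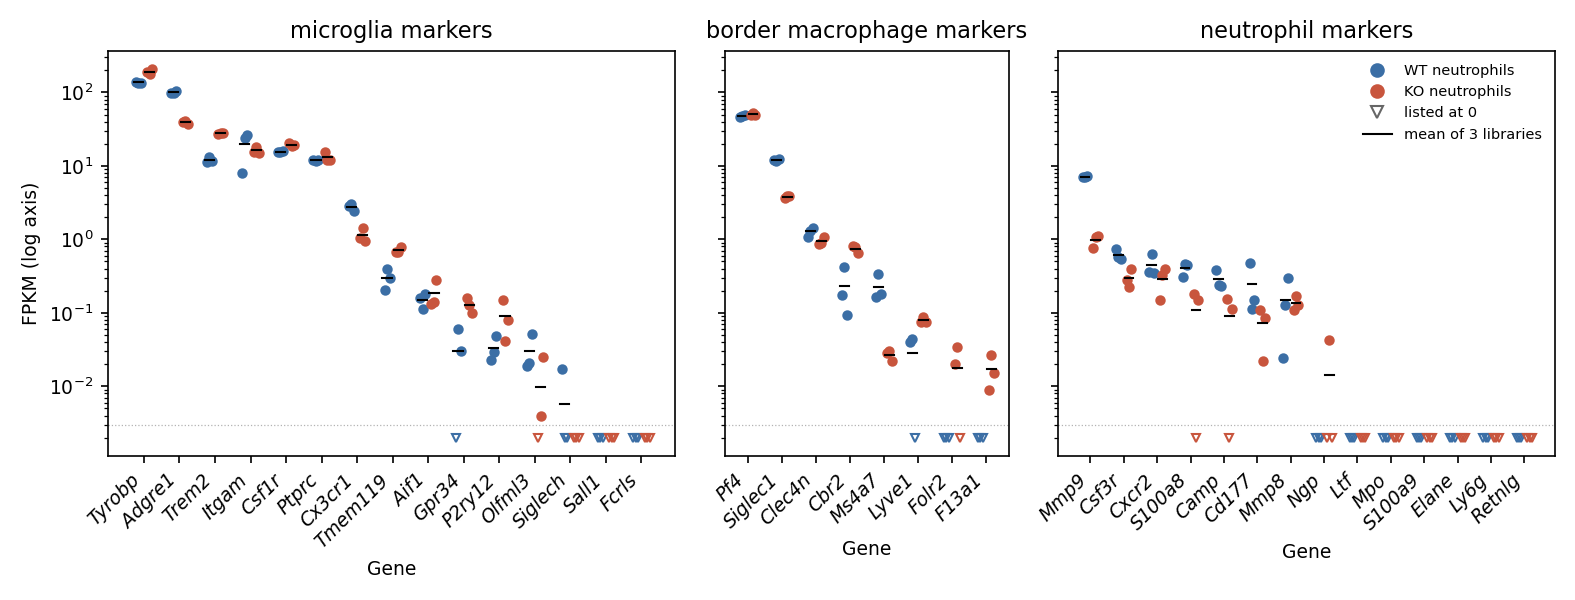
FPKM (log axis) of marker genes of microglia (15 of the 16), border macrophages and neutrophils in the 3 libraries with WT (blue) and the 3 with KO neutrophils (red). Black lines are means and triangles under the dotted line are libraries in which the gene was listed at 0. Among the neutrophil markers only Mmp9 exceeded 1 FPKM, and 6 of the 14 were at 0 in every library.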

How the data were processed

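Gene expression of sorted microglia was measured by RNA-seq in 6 libraries, 3 per neutrophil genotype, and groups follow the titles. Values are FPKM in a single table deposited by the authors, with 1 column per library. The submitters' processing notes name fastp 0.17.1, HISAT2 2.1.0, DESeq2 1.18.1 and R 3.4.3. The quantification program, genome build and annotation are not given in the sources used here, and the labels and the methods name different kits and sequencers. Symbols and positions came from GENCODE M21 (GRCm38), in which 55154 of 55335 identifiers (99.67%) were found.

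The values are not counts. Only 32.0% to 33.8% of the low values were whole numbers of fragments (within 0.05 of a fragment, against 10% by chance), so reads were not recovered and no count test was run. The floor of 3 fragments used the longest protein-coding transcript and covers counting error only.

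limma 3.58.1 (R 4.3.3; lmFit, eBayes with a mean-variance trend, two-sided) was run on log2(FPKM + 1) for genes averaging 1 FPKM or more, adjusted over all 11395 genes tested. The script was tested on simulated data. Replicate numbers did not pair the libraries (correlations of same-numbered deviations -0.075, -0.052 and -0.005), so no block was used. The receptors and gene lists were chosen with earlier results of these data known. Every receptor was named, and up to 4 tested genes with the smallest p of each list, except that some genes are not reported here. Alternatives were a pseudocount of 0.1, no filter, a minimum mean of 5 FPKM, rescaling to a common sum with and without mitochondrial genes, median centring, no variance trend, a replicate block and leaving out each library.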

Additional observations from a re-analysis of the deposited data

How the results depend on the processing

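Every receptor tested kept its direction under all alternatives, and only Scarb1 crossed the threshold. Its log2 change of 0.17 lost the call with no filter on low values (0.17, limma adjusted p = 0.0527), on a common sum (0.13, limma adjusted p = 0.0764) and with the replicate number as a block (0.17, limma adjusted p = 0.0774), and ranged from 0.14 to 0.19 with 1 library left out (limma adjusted p = 0.0361 to 0.0864). Of the fits with 1 library left out, the call held only in that without KO replicate 1. It was lost without WT replicate 1, 2 or 3 and without KO replicate 2 or 3. The cause was not tested. Over the alternatives with all libraries, Msr1 ranged from -2.46 to -1.73, Cd36 from 0.53 to 0.62, Stab1 from -0.77 to -0.58, Cd68 from 0.35 to 0.40 and Lrp1 from 0.21 to 0.26. The receptors called numbered 4 at a minimum mean of 5 FPKM, where only 4 were tested, 5 on a common sum and with the replicate block, and 7 without a filter. The replicate block changed no other receptor's call and gave 4212 calls over all genes in place of 4930. Among the named list genes the call of Adam17 was lost without a filter, without the variance trend and without WT replicate 1, WT replicate 2, KO replicate 2 or KO replicate 3. Depth limits Marco, Mrc1 and Cd163, whose values are a few fragments or none in at least 1 group.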

Other observations

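Single libraries stood apart in some list genes that were not called. Adam10, a sheddase, was at 35.594 FPKM in WT replicate 3 and 41.675 FPKM in KO replicate 2, above the means of 26.4 ± 8.0 and 32.1 ± 8.33 FPKM of their groups (log2 change 0.28, limma adjusted p = 0.386). Tlr4, the lipopolysaccharide receptor that pairs with Cd36, was at 3.178 FPKM in WT replicate 2 and at 11.844 and 11.946 FPKM in the other WT libraries. With KO neutrophils Tlr4 was at 3.139, 3.087 and 3.988 FPKM (log2 change -1.01, limma adjusted p = 0.11). These genes were chosen after their values were seen.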
